A study of Drosophila melanogaster with 9 samples.

Results

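The genes described here encode the subunits of the proteasome, and they were taken as every gene of the count table whose FlyBase symbol begins with Prosalpha, Prosbeta, Rpn or Rpt followed by a number. The rule found 47 of the 13676 genes, using names only and no measured value. Of these, 31 are the subunits themselves, with 6 genes of the alpha ring, 7 of the beta ring, 6 Rpt ATPases and 12 Rpn subunits. The other 16 carry an R or a T after the number and are paralogs, further copies of a subunit gene, several of which are known in Drosophila for expression in the testis. Prosalpha1, which the same rule matches in the genome annotation, has no row under its FlyBase ID in the count table. The alpha ring and the core are therefore given here without it.

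The proteasome is the protease that degrades proteins tagged with ubiquitin. Its barrel-shaped core particle is a stack of alpha rings, which gate the entrance, and beta rings, which carry the peptidase sites inside. The regulatory particle caps the barrel. There the Rpt subunits form an ATPase ring that unfolds substrates, and the Rpn subunits bind ubiquitin chains, remove them and hold the particle together. Almost every cell needs both particles, and in Drosophila males the germline builds a core particle with paralogous subunits.

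RNA of whole eye-antennal imaginal discs, the larval tissue that forms the eye, the antenna and much of the adult head capsule, was sequenced at 72h, 96h and 120h after egg laying (AEL). These times are late L2, mid L3 and late L3 of the wild-type OregonR strain kept at 25°C. Each stage has 3 libraries, A, B and C, each made from pooled discs, 120 to 130 of late L2, 80 to 90 of mid L3 or 40 to 50 of late L3 larvae. The late L2 larvae were of both sexes and the older ones female, which means that sex and stage cannot be told apart wherever late L2 takes part. The 120h AEL libraries are labelled as a reanalysis, and whether they were prepared together with the others is not given in the sources used here.

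The libraries held 17675472 to 37305763 counts. The 72h AEL libraries A and B agreed within sampling noise, which alone gives a chi-square per gene of about 1 (chi-square per gene of 1.024 over 10235 genes, against 36.2 to 488 for the other 8 pairs within a stage) and were counted as 1 sample, which leaves 2 samples in late L2 and 3 in both later stages. All 8 eye-antennal disc markers were detected, with a summed level of 622 to 647 CPM (counts scaled to a common library size by the trimmed mean of M values, TMM) in late L2, 1417 to 1916 CPM in mid L3 and 1106 to 1247 CPM in late L3. Markers of attached tissues differed widely: the summed level of 6 muscle genes was 11750 to 14450 CPM in late L2, 1718 to 5743 CPM in mid L3 and 351 to 691 CPM in late L3. Fat body genes summed to 140 CPM in 120h AEL library B and to 1791 to 6771 CPM in the other samples. Salivary gland genes summed to 238 to 297 CPM in late L3 and to at most 5.06 CPM earlier. Hemocyte genes summed to 262 to 1120 CPM in late L2, 17.1 to 263 CPM in mid L3 and 123 to 697 CPM in late L3. Libraries also differed in how their counts depended on gene length, as given with the results it touches. In such bulk samples fewer cells of a type and less RNA per cell cannot be told apart.

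The 31 subunit genes were measured at high levels in all samples. Together they took 0.769% and 0.816% of all counts in late L2, 0.948%, 0.989% and 0.939% in mid L3, and 0.948%, 0.962% and 0.9995% in late L3. Scaled by TMM, their sum was instead highest in late L2. It was 11530 and 9806 CPM there, 8657, 9107 and 8801 CPM in mid L3, and 8163, 8918 and 8806 CPM in late L3. The TMM factors were 0.667 and 0.832 in late L2 and 1.07 to 1.16 later. Levels of different genes are compared per kb of coding sequence. On this scale the mean over the stages ran between 124 CPM per kb for Rpn1 and 529 CPM per kb for Prosalpha2, a 4.28-fold range, where the median of the 9052 genes passing the count filter over all stages was 26.4 CPM per kb. The lowest subunit stood above 85.5% of those genes. Over the 8 samples the SD of log2 CPM had a median of 0.21 for the 31 subunits and of 0.47 for all genes passing the filter.

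**Figure D1:**
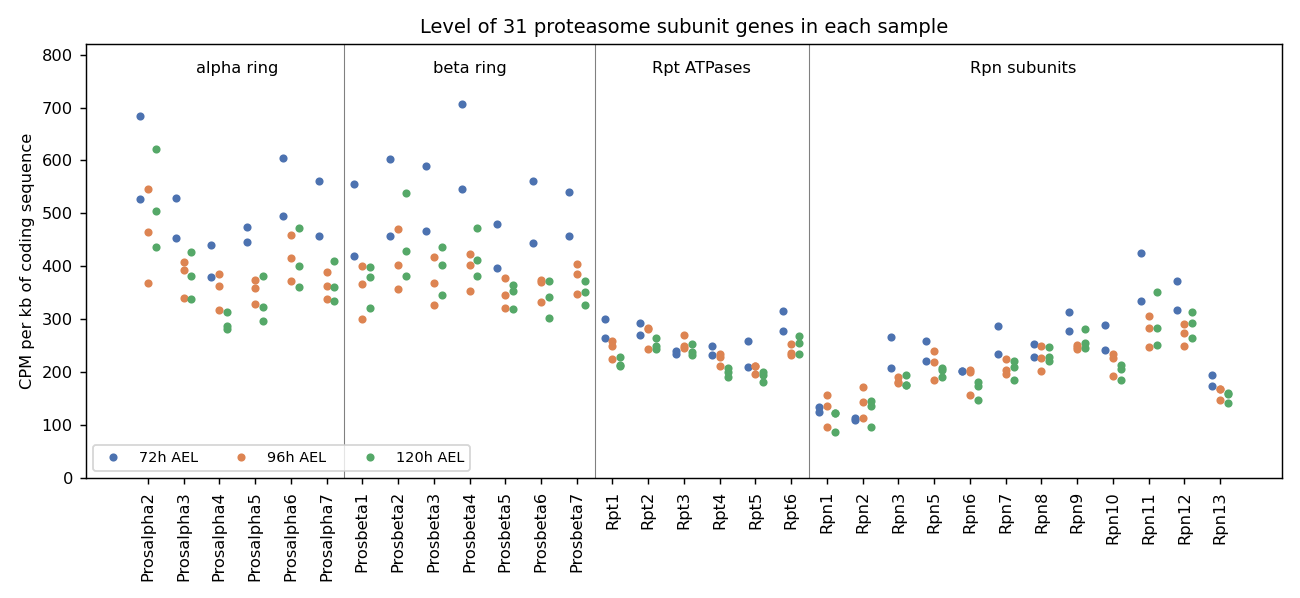
Level of each of the 31 subunit genes (CPM per kb of coding sequence, linear axis), with 1 point per sample, coloured by stage, and vertical lines between the alpha ring, the beta ring, the Rpt ATPases and the Rpn subunits. Core subunits lie at 282 to 707 CPM per kb and regulatory subunits at 86.4 to 425 CPM per kb over the samples.

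The alpha ring was tight in level. Prosalpha2 was its highest member, with 683 and 527 CPM per kb in late L2, 369, 465 and 547 CPM per kb in mid L3, and 436, 622 and 505 CPM per kb in late L3. Prosalpha4 was its lowest, with 441 and 381 CPM per kb in late L2, 362, 385 and 317 CPM per kb in mid L3, and 288, 282 and 314 CPM per kb in late L3. The samples of the stages overlapped for Prosalpha2, and for Prosalpha4 those in late L3 all lay under those of both earlier stages. The stage means of Prosalpha4 differed by -0.27 ± 0.13 (log2, SE) between 120h and 96h AEL, which missed the threshold (adjusted p = 0.247 in edgeR's quasi-likelihood test).

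In the beta ring, Prosbeta1, Prosbeta2 and Prosbeta5 bear the caspase-like, trypsin-like and chymotrypsin-like sites, and the other members are structural. Mean levels of the catalytic subunits were 403, 463 and 378 CPM per kb for Prosbeta1, Prosbeta2 and Prosbeta5 in that order, and Prosbeta5 was the lowest of the ring. The highest was Prosbeta4, with 707 and 546 CPM per kb in late L2, 353, 403 and 423 CPM per kb in mid L3, and 382, 472 and 413 CPM per kb in late L3. Its samples in late L2 lay above all later ones. The span between the lowest and the highest mean in the ring was only 1.27-fold.

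The Rpt ATPases, which work as 1 hexamer, had nearly equal levels. Rpt2 was highest, with 293 and 271 CPM per kb in late L2, 283, 282 and 243 CPM per kb in mid L3, and 244, 250 and 265 CPM per kb in late L3. Rpt5 was lowest, with 258 and 209 CPM per kb in late L2, 212, 212 and 197 CPM per kb in mid L3, and 195, 182 and 200 CPM per kb in late L3. The ATPases were the steadiest group, with a median SD of log2 CPM of 0.14 over the samples, against 0.19 for the Rpn subunits and 0.25 for the core. Rpt3 had the smallest SD of all 31 subunits, 0.07. The ATPase genes are also alike in coding length, at 1194 to 1320 bp. Among Rpn genes of 1077 to 1320 bp the SD was 0.108 for Rpn8, 0.131 for Rpn9 and 0.143 for Rpn13. It was 0.185 for Rpn6, 0.192 for Rpn7 and 0.206 for Rpn10. The longest genes, Rpn1 and Rpn2, had 0.281 and 0.276. The part of length in this steadiness was not tested.

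The Rpn subunits were the most varied in level, by 2.58-fold. Rpn11, the deubiquitinase that cuts ubiquitin chains from substrates, was highest, with 425 and 335 CPM per kb in late L2, 248, 284 and 305 CPM per kb in mid L3, and 252, 352 and 284 CPM per kb in late L3. Rpn1, a large scaffold on which ubiquitin-binding shuttle factors dock, was lowest, with 135 and 125 CPM per kb in late L2, 158, 136 and 95.8 CPM per kb in mid L3, and 123, 86.4 and 123 CPM per kb in late L3. The other large scaffold, Rpn2, averaged 127 CPM per kb. The ubiquitin receptors Rpn10 and Rpn13 averaged 228 and 166 CPM per kb.

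By its median, the core stood above the 18 regulatory subunits with an Rpn or Rpt symbol in every sample. The median core subunit was at 2.13 and 1.96 times the median regulatory subunit in late L2, at 1.48, 1.69 and 1.96 times in mid L3, and at 1.62, 2.04 and 1.75 times in late L3. In 7 of the 8 samples each of the 13 core subunits was above each of the 18 regulatory subunits, and in 120h AEL library B 3 regulatory subunits stood above the lowest core subunit. The 2 particles also differ in gene length. Core coding sequences are 606 to 849 bp and regulatory ones 795 to 3090 bp. The level per kb was lower for longer genes over the 31 subunits in each sample (Spearman's correlation from -0.88 to -0.77, genes of 1 library and so a description only), and over all genes passing the filter it was -0.57 to -0.17. Rpn12, the shortest of the 18 regulatory genes, averaged 302 CPM per kb, under all core subunits. The symbol rule leaves out Sem1, which is listed here with the assembly factors. Its coding sequence has 240 bp, and it averaged 719 CPM per kb, above all core subunits. What part length has in the difference between the particles was not tested.

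**Figure D2:**
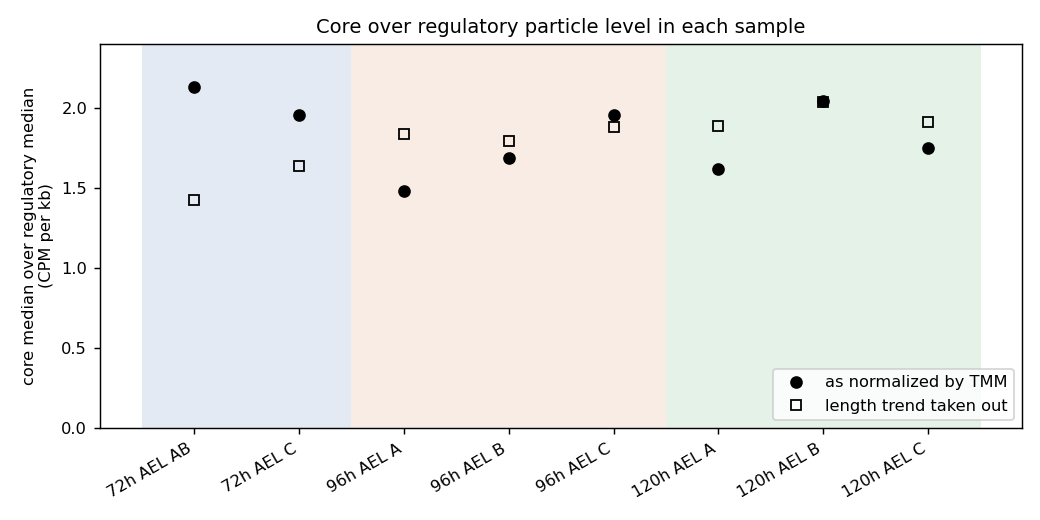
Median level of the 13 core subunits over that of the 18 regulatory subunits in each sample (ratio of CPM per kb, axis from 0), with filled circles for TMM-scaled values and open squares for values with the trend of each library on coding length taken out, on a background coloured by stage. As scaled by TMM the ratio is 1.96 and 2.13 in late L2 and 1.48 to 2.04 later, and with the trend out it is 1.43 and 1.64 in late L2 and 1.79 to 2.04 later.

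Within each stage, the ratio of the particles was higher in samples in which long genes were relatively lower. Spearman's correlation of coding length with a gene's level relative to the other samples was -0.48 and -0.38 in late L2 for the ratios 2.13 and 1.96. It was 0.55, 0.37 and -0.17 in mid L3 for the ratios 1.48, 1.69 and 1.96, and 0.45, -0.03 and 0.34 in late L3 for the ratios 1.62, 2.04 and 1.75. Between stages this order did not hold. The late L3 sample at -0.03 had a ratio of 2.04, above the 1.96 of the late L2 sample at -0.38. The part of the length dependence in the ratio was not tested. With each library's trend on coding length taken out, the ratio was 1.43 and 1.64 in late L2, 1.84, 1.79 and 1.88 in mid L3, and 1.89, 2.04 and 1.92 in late L3. The samples in late L2 then lay below all later ones, where before they had been among the highest.

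For changes between stages, edgeR's quasi-likelihood test was fitted over all genes passing the filter, with Benjamini-Hochberg adjustment and a threshold of 0.05. In each comparison 34 members were tested, which are the 31 subunits and the paralogs Prosalpha1R, Rpt3R and Rpn13R. The 3 comparisons share samples, so they are not independent of each other. Nothing in the labels says that the libraries of a stage came from separate crosses, and p-values measure the spread between these samples only.

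From 72h to 96h AEL, late L2 to mid L3, 0 of the 34 members passed the test, where 42.4% of all 8904 genes tested did. At an unadjusted p under 0.05 there was 1 member, Prosbeta4. DESeq2, with the same samples and filter, called 7 members lower and 0 higher, against 58.2% of all genes. Those 7 were Prosalpha1R, Prosalpha5, Prosalpha7, Prosbeta3, Prosbeta4, Prosbeta6 and Prosbeta7, all of the core. All 13 core subunits had negative log2 fold changes, with a median of -0.34 and a range of -0.62 to -0.16. The regulatory subunits had a median of -0.13, and 15 of 18 were negative. The median of all genes tested was -0.04. Groups of samples did not overlap for 22 of the 34 members, against 72.0% of all genes.

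Prosbeta4 and Rpn2 mark the ends of the range of all 31 subunits, and they and Rpn1, the other large scaffold, were chosen after their values were seen. Prosbeta4 averaged 238 CPM in mid L3 and 380 CPM in late L2, a log2 fold change of -0.62 ± 0.19 (SE, adjusted p = 0.0520 in edgeR). Rpn2 averaged 441 CPM in mid L3 and 346 CPM in late L2, a log2 fold change of 0.41 ± 0.24 (SE, adjusted p = 0.212 in edgeR). Rpn1 had 0.05 ± 0.26 (SE, adjusted p = 0.875 in edgeR). Prosbeta4 has the shortest coding sequence of the 31 genes and Rpn2 and Rpn1 the longest. The standard errors of the 31 subunits were 0.16 to 0.26 on the log2 scale.

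**Figure D3:**
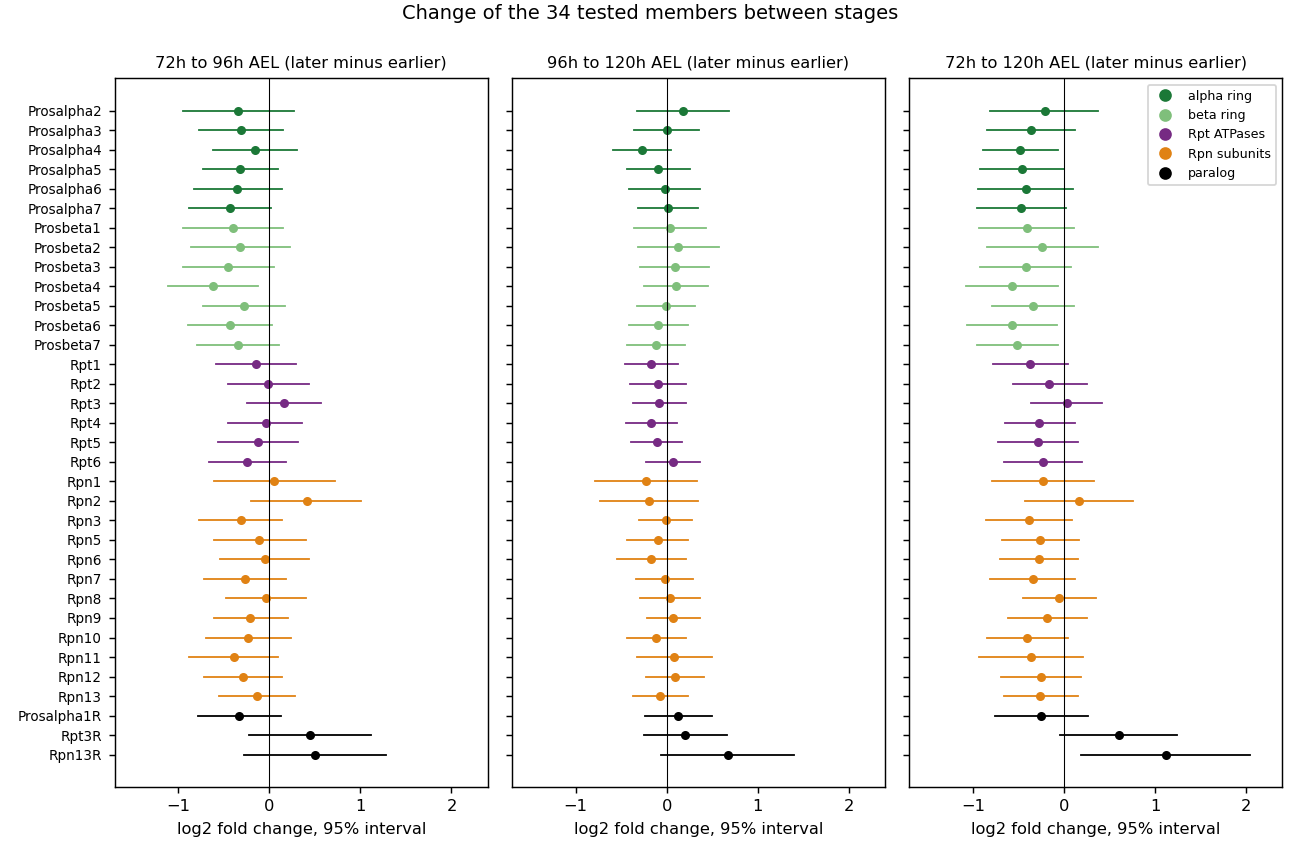
Log2 fold change of the 34 tested members in each comparison of stages, later minus earlier, with points for the edgeR estimate and bars for its 95% interval, coloured by ring or subunit class with paralogs in black. In both comparisons with 72h AEL the core lies left of 0, the change from 96h to 120h AEL scatters around 0, and Rpn13R lies furthest right in each panel.

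The order of the changes from 72h to 96h AEL went with coding length. Over the 31 subunits Spearman's correlation between coding length and log2 fold change was 0.81 in this comparison, and over all genes tested it was 0.48 (genes share libraries, so these are descriptions). It had the opposite sign from 96h to 120h AEL, at -0.55 for the subunits and -0.11 for all genes, and was 0.57 and 0.40 from 72h to 120h AEL. Taking each library's length trend out as an offset, with the scale of TMM kept, turned the core round. Its median became 0.21, with all 13 subunits positive, while the regulatory median was -0.08 and that of all genes -0.07. In that fit, in which 46.5% of all genes passed, Rpn13R was called higher, at 0.86, and Rpn1 and Rpn2 lower, at -0.85 and -0.58. The correlation over the 31 subunits was then -0.82, and over all genes -0.16, so the offset left a trend of the opposite sign in the subunits.

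**Figure D4:**
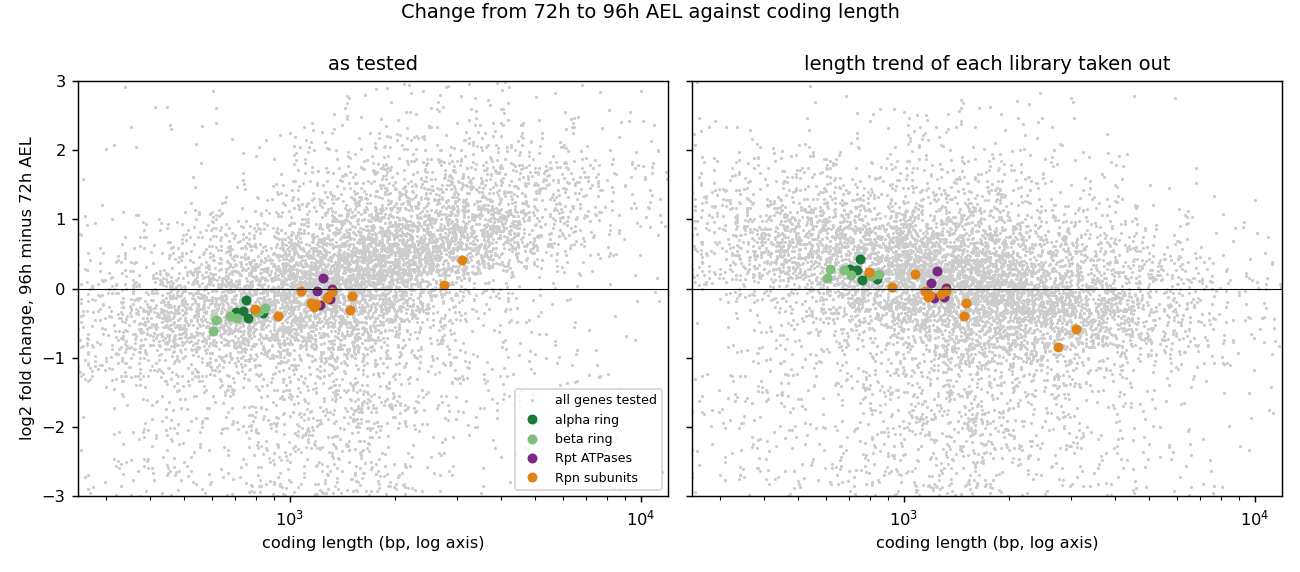
Change of each gene between 72h and 96h AEL (log2, 96h minus 72h) against coding length (bp, log axis), with all 8904 genes tested in grey (those outside the axes not shown) and the 31 subunits coloured by class, as tested on the left and with each library's length trend taken out on the right. The core subunits lie below 0 on the left, with a median of -0.34, and above 0 on the right, with a median of 0.21, while the 2 longest subunit genes move the other way.

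The sign of both medians also depended on the scale. Scaling by library size in place of TMM moved the median of all genes to 0.44, and with it the core median to 0.15 and the regulatory median to 0.36. Relative to all genes the core was at -0.29 by library size and -0.30 by TMM, and the regulatory particle at -0.08 and -0.09 in the same order. Disc and muscle markers, the length dependence and the sex of the larvae differed together with this transition, and their part in these values was not tested.

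From 96h to 120h AEL, mid to late L3, no proteasome gene passed the test. With edgeR 0 of 34 members passed, against 14.6% of the 8102 genes tested, 0 had an unadjusted p under 0.05, and DESeq2 called 0, against 22.6% of all genes. The core median was 0.00, with a range of -0.27 for Prosalpha4 to 0.18 for Prosalpha2. The regulatory median was -0.09, with a range of -0.23 for Rpn1 to 0.09 for Rpn12. The 95% intervals of the Rpt ATPases lay within -0.46 to 0.37, so that a change of 1 on the log2 scale in either direction is outside all of them. Groups of samples did not overlap for 2 members, Prosalpha4 and Rpt4, 5.9% of those tested, against 33.7% of all genes. With the length trend out, 0 members were called, against 24.8% of all genes.

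Between the first and the last stage, 1 of 34 members passed, Rpn13R, where 53.0% of the 9041 genes tested did. At an unadjusted p under 0.05 there were 6. All 13 core subunits were again negative, with a median of -0.42, and 16 of 18 regulatory subunits were, with a median of -0.26, against -0.01 for all genes. The lowest were Prosbeta4 and Prosbeta6, each at -0.57, with adjusted p of 0.0614 and 0.0547 in edgeR. DESeq2 called 14 members lower and 2 higher, against 62.8% of all genes. By library size the core median was 0.18 and the regulatory median 0.34, against 0.58 for all genes, and with the length trend out they were 0.13 and -0.21, against -0.07. In the fit with the trend out, which called 61.1% of all genes, Prosalpha2, Prosbeta3 and Rpn13R were higher, and Rpn1 and Rpn2 lower. Groups did not overlap for 26 members, against 74.3% of all genes.

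Most of the paralogs were at the detection floor in the discs. Of the 16, 10 had at most 3 counts in every library and 42 counts in all, namely Prosalpha3T, Prosalpha4T1, Prosalpha4T2, Prosalpha6T, Prosbeta2R1, Prosbeta4R1, Prosbeta4R2, Prosbeta5R1, Prosbeta5R2 and Rpn12R. These few counts were 3 in late L2, 10 in mid L3 and 29 in late L3, and the highest total of a single gene was 11, for Prosbeta5R1. The parent genes Prosalpha3, Prosalpha4, Prosalpha6, Prosbeta2, Prosbeta4, Prosbeta5 and Rpn12 are among the subunits above, and each of these paralogs was at no more than 0.0454% of its parent's CPM per kb in every sample. Prosbeta2R2 had 8, 8 and 0 counts in late L2, 1, 3 and 6 in mid L3, and 2, 2 and 2 in late L3. Of 20 male germline markers 16 were under 1 CPM in every sample, and their sum was 22.6 to 24.5 CPM in late L2, 20.3 to 28.7 CPM in mid L3 and 19.4 to 21.6 CPM in late L3.

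Prosalpha1R was the exception in the other direction, as the counts under its name gave the highest mean level per kb of all 47 members. It lies on chromosome arm 2R at 7830413 to 7831771 (BDGP6 annotation), next to Prosalpha1 on the same strand and with the same annotated coding length of 732 bp. The 2 genes are near-identical copies, and reads of Prosalpha1 cannot be told apart from those of Prosalpha1R where their sequences match. The 47 members hold no counts for Prosalpha1 itself, so its matching reads may have been counted under Prosalpha1R. The level of either gene alone is thus uncertain, and a high level of the paralog itself is not shown. The values that follow are those counted under Prosalpha1R. Its level was 1000 and 841 CPM per kb in late L2, 649, 722 and 750 CPM per kb in mid L3, and 676, 881 and 766 CPM per kb in late L3. From late L2 to mid L3 it changed in value by -0.33 ± 0.18 on the log2 scale (SE, adjusted p = 0.184 in edgeR), and it was positive by library size and with the length trend out, at 0.16 and 0.27.

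Rpn13R, a paralog of the ubiquitin receptor Rpn13, lies on the X chromosome at 5131898 to 5132985 (BDGP6 annotation), while Rpn13 is on 2R. It had 328, 432 and 272 counts in late L2, 754, 456 and 617 in mid L3, and 924, 834 and 629 in late L3. Its level was 17.0 and 11.8 CPM in late L2, 18.4, 14.9 and 25.4 CPM in mid L3, and 27.9, 43.7 and 21.9 CPM in late L3. Each sample in late L3 was above both in late L2, and library B was the highest of its stage. Between the first and the last stage Rpn13R rose, by 1.12 ± 0.37 (log2, SE, 95% interval 0.19 to 2.04, adjusted p = 0.0499 in edgeR). The call was lost without any 1 of the 120h AEL libraries and without 72h AEL library A. In these fits and in the fit without 72h AEL library C, which leaves 1 sample in late L2, log2 fold changes were 0.83 to 1.32. The call was also lost with edgeR's own count filter, at 1.09. From 72h to 96h AEL the change was 0.50 ± 0.31 (SE, adjusted p = 0.226), and from 96h to 120h AEL it was 0.67 ± 0.31 (SE, adjusted p = 0.221, both in edgeR).

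Rpn13 itself had lower values at the later stages, and no test of it passed. It had 195 and 173 CPM per kb in late L2, 147, 169 and 168 CPM per kb in mid L3, and 142, 159 and 161 CPM per kb in late L3. Per kb, Rpn13R stood at 8.93% and 6.98% of Rpn13 in late L2, at 12.9%, 9.07% and 15.5% in mid L3, and at 20.2%, 28.3% and 13.9% in late L3. The highest ratio was in 120h AEL library B, in which fat body markers were lowest, and whether that has a part in it was not tested.

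The ATPase paralogs lie on autosomes and their parents Rpt3, Rpt4 and Rpt6 on X. Rpt3R, on 3R at 9754735 to 9756510 (BDGP6 annotation), had 4.82 and 5.27 CPM per kb in late L2, 6.951, 6.543 and 6.419 CPM per kb in mid L3, and 7.60, 6.85 and 8.52 CPM per kb in late L3, which was 2.01% to 3.36% of Rpt3. Both later stages lay above 72h AEL in each sample. The log2 fold change between the first and last stage was 0.60 ± 0.25 (SE, adjusted p = 0.0964 in edgeR), and DESeq2 called it.

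The other ATPase paralogs were seen in few reads, and mostly in late L3. Rpt6R had 5, 6 and 13 counts in late L2, 12, 1 and 5 in mid L3, and 32, 16 and 39 in late L3. Rpt4R had 0 counts in each library in late L2, 2, 0 and 1 in mid L3, and 8, 4 and 8 in late L3. Against a floor of 3 counts over the 72h AEL libraries, the 20 counts of Rpt4R in late L3 gave a level 5.60-fold higher. Counting error of those 20 counts is not covered, so this is not a lower bound. In its highest sample Rpt6R reached 0.443% of Rpt6, and Rpt4R 0.112% of Rpt4. Both genes were under the count filter of the main test. With no filter Rpt4R was called higher from 72h to 120h AEL. It entered that fit only through its 120h AEL libraries, so the call is no evidence of its change.

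**Figure D5:**
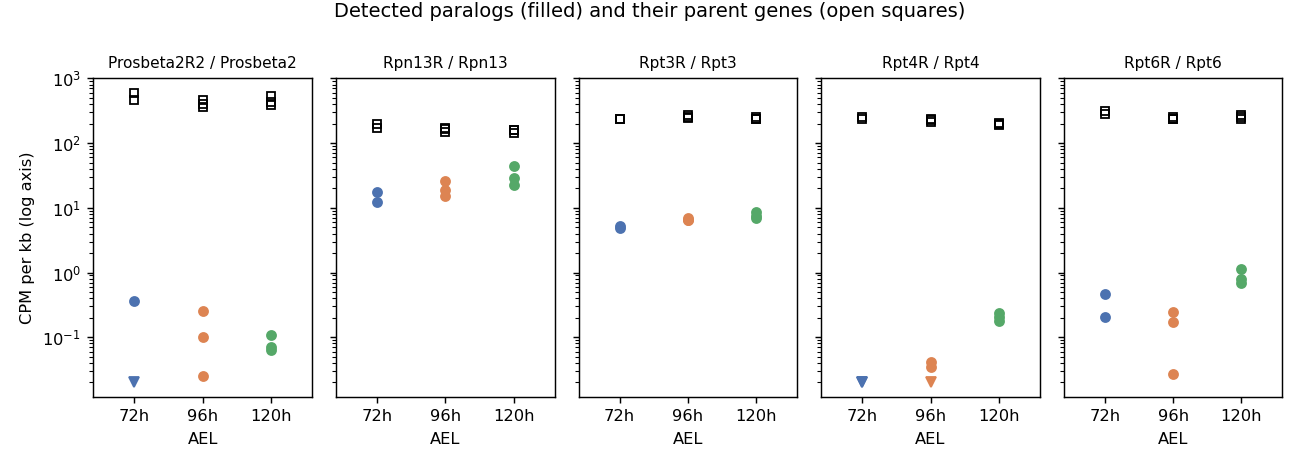
Level of 5 of the 6 paralogs with over 3 counts in a library (filled points, coloured by stage) and of their parent genes (open squares) in each sample, in CPM per kb on a log axis, with triangles at the lower edge for samples without a count. Rpn13R and Rpt3R lie closest to their parents, and Rpt4R and Rpt6R are highest in late L3.

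Few of the genes that act with the proteasome passed the test. Of 42 listed genes 34 were found and all were tested. From 72h to 96h AEL 1 passed with edgeR, against the 42.4% of all genes. It was higher, and was ben, an E2 enzyme that builds lysine-63 chains, with 120, 126 and 118 CPM in mid L3 against 74.9 and 83.1 CPM in late L2 (log2 fold change 0.67 ± 0.15, SE, adjusted p = 0.0247). The call of ben was lost without 96h AEL library A or 96h AEL library B. Leaving out 72h AEL library C keeps only 1 sample in late L2, so calls of that fit are not given. From 96h to 120h AEL 0 passed, against 14.6% of all genes. The smallest adjusted p in that comparison was 0.0894, for Keap1, the ligase adaptor that holds back the transcription factor cnc, with a log2 fold change of 0.41.

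Between the first and the last stage 4 of the 34 were higher and 2 lower, a smaller share than the 53.0% of all genes. The higher ones were Keap1 (0.80 ± 0.21, adjusted p = 0.0265), the E2 enzymes Ubc2 (0.70 ± 0.22, adjusted p = 0.0434) and ben (0.61 ± 0.13, adjusted p = 0.0153), and the peptide N-glycanase Pngl (0.41 ± 0.13, adjusted p = 0.0490), each as log2 fold change with SE in edgeR. The E2 enzyme Ubc4 had 42.9, 46.3 and 49.7 CPM in late L3 and 71.1 and 68.7 CPM in late L2. REG, the PA28-gamma type activator that caps the core without the regulatory particle, had 184, 178 and 178 CPM in late L3 and 233 and 289 CPM in late L2. The samples of the 2 stages did not overlap for either gene, and both fell, by 0.59 and 0.53 on the log2 scale (adjusted p = 0.0150 for Ubc4 and 0.0433 for REG in edgeR).

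With the length trend out 15 of these genes were higher and 6 lower, about the share of all genes called in that fit, 61.1%. Neither Ubc4 nor REG passed then, with positive values of 0.25 and 0.05. Keap1 and Pngl did not pass either, at 0.12 and 0.00. By library size Ubc4 was at -0.01 and REG at 0.04. The call of Ubc4 was lost without 120h AEL library A or C, and that of Keap1 likewise. That of REG was lost without 72h AEL library B or any 1 of the 120h AEL libraries, with no filter and with the replicate letter as a block. Among the other lists, the member with the smallest p between the first and last stage did not pass. The ubiquitin fusion gene RpS27A was at -0.68 ± 0.27, Ufd1 of the unfoldase complex at 0.33 ± 0.15, the ligase Ufd4 at 0.48 ± 0.16 and the assembly chaperone PSMG1 at -0.46 ± 0.19 (log2, SE, adjusted p of 0.0843, 0.115, 0.0520 and 0.0912 in that order, in edgeR). From 72h to 96h AEL they were RpS27A at -0.67, the shuttle factor Ubqn at 1.10, the proteasome-bound deubiquitinase Uch-L5 at 0.44, the assembly factor Pomp at -0.51, REG at -0.02 and cnc, whose relatives activate proteasome genes in mammals, at 1.23, and none passed. From 96h to 120h AEL they were the polyubiquitin gene Ubi-p5E at 0.22, Ubc4 at -0.37, the shuttle factor rngo at -0.41, Uch-L5 at -0.20, the proteasome regulator PI31 at 0.17 and REG at -0.46, and none passed. Ubiquitin genes share near-identical repeats, and their values are uncertain gene by gene.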

How the data were processed

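The deposited table holds raw counts per gene and library. Per the study's methods, the authors aligned untrimmed 50 bp reads from 1 end, using Bowtie2, against 1 coding sequence per gene, the longest in FlyBase r5.55, and counted them with SAMtools 0.1.19, without strand. Antisense or near-identical transcripts can thus not be told apart, and no UTR is counted. Deposited co-expression cluster numbers were not used. Libraries of a stage with a chi-square per gene under 1.5 (over genes that had 20 or more counts between them) were summed. Each pair of stages was fitted on its own with edgeR 4.0.16 (quasi-likelihood, TMM scaling) in R 4.3.3, and called at adjusted p under 0.05. Genes were filtered on normalized counts after the HTSFilter method (thresholds of 137.5, 153 and 137.5 for 72h to 96h, 96h to 120h and 72h to 120h AEL). DESeq2 1.42.0, other scalings, filters, samples and an offset for the trend of log2 CPM on coding length (loess, span 0.5) were alternatives. A count of 3 equals 0.0804 to 0.170 CPM of total counts, and at 10 CPM counting error is 5.18% to 7.52%.

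Gene names and positions were matched by FlyBase ID to a BDGP6 annotation, and 13406 of the 13676 IDs had a name there or in a name table. Members, gene lists and tests were chosen with earlier results of these data known. Values were named by a rule: called members with the largest changes, the highest and lowest member of each class, all paralogs with their parents, and of each pathway list the member with the smallest p. Prosbeta4, Prosbeta6, Rpn1, Rpn2 and others named beyond it were chosen after their values were seen.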

Additional observations from a re-analysis of the deposited data

How the results depend on the processing

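The result of 0 called subunits rests on edgeR and on the scale. Each count is of 34 members, with the share of all genes called in the same direction and fit after it. From 72h to 96h AEL the members called lower were 0 (23.0%), but 7 with DESeq2 (30.5%), 4 with 72h AEL libraries A and B as separate samples (32.2%), 4 with all stages in one fit (29.3%) and 2 with the length trend out (26.4%). Those called higher were 0 (19.4%), but 3 by library size (35.7%), 1 with the length trend out (20.1%) and 23 when the level of that trend was taken out too (44.1%), an alternative chosen after seeing the data, which moves the median of all genes to 0.44. From 96h to 120h AEL there were 0 calls, but with filterByExpr 1 of 35 was higher (8.79%). This was Rpt6R, which at 96h AEL had 12, 1 and 5 counts and was kept through its 120h AEL libraries, so the call is no evidence of its change. From 72h to 120h AEL 1 member was higher (24.0%), but 2 with DESeq2 (29.6%), 4 by library size (44.9%), 2 of 45 with no filter (16.8%), 0 of 35 with filterByExpr (22.4%), 3 with the length trend out (27.3%), 21 with its level out too (45.4%), 2 with libraries A and B separate (32.8%) and 2 with all stages in one fit (26.6%). Those lower were 0 (29.1%), but 14 with DESeq2 (33.2%), 2 with DESeq2 size factors (29.1%), 2 with the length trend out (33.8%), 1 with its level out too (22.1%), 13 with A and B separate (34.4%) and 6 with all stages in one fit (30.4%). Of the members called higher from 72h to 120h AEL with no filter, 1 was Rpt4R. It had no counts at 72h AEL and was kept through its 120h AEL libraries, so that call is no evidence of its change. Leaving out 1 replicate, where at least 2 samples stayed in each stage, gave 0 calls in both adjacent comparisons. The shares of all genes then ran from 1.43% to 22.2% higher and 5.64% to 22.9% lower from 72h to 96h AEL. From 96h to 120h AEL they were 3.91% to 9.95% and 2.54% to 7.20%. Where so few genes pass, 0 called members says little. From 72h to 120h AEL 0 to 1 member was higher (11.3% to 26.1%) and 0 to 1 lower (16.4% to 28.9%), Prosalpha5 without 120h AEL library B. Where not stated, the cause was not tested.

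The core median from 72h to 96h AEL was -0.34, against 0.15 by library size, 0.21 with the length trend out and 0.72 with its level out too, and -0.50 to -0.27 with 1 replicate left out. The regulatory median was -0.13, against 0.36 by library size and 0.43 with the trend and its level out, and -0.22 to -0.06 with 1 replicate left out. From 96h to 120h AEL the regulatory median of -0.09 was -0.03 by library size and -0.14 with the trend and its level out. From 72h to 120h AEL the core median of -0.42 was 0.18 by library size, 0.13 with the trend out and 0.66 with its level out too, and -0.59 to -0.33 with 1 replicate left out. The regulatory median of -0.26 was 0.34 by library size and 0.33 with the trend and its level out. The count of paralogs detected was 6 at over 3 counts in a library and 4 at over 10.

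Single genes reversed sign from 72h to 96h AEL as follows. Prosalpha1R was at 0.16 by library size, 0.27 with the trend out and 0.78 with its level out too. Prosbeta4 was at 0.15 and 0.67 with the trend out and with its level out too, and Prosbeta6 at 0.06 by library size and 0.20 and 0.72 in those fits. Rpn1 was at -0.85 and -0.32 in those fits, -0.09 to 0.28 with 1 replicate left out (-0.09 without 96h AEL library A) and at -0.0 with all stages in one fit, and Rpn2 at -0.58 and -0.07. From 72h to 120h AEL, by library size, with the trend out and with its level out too, Prosalpha1R was at 0.35, 0.35 and 0.88, Prosbeta4 at 0.03, 0.27 and 0.80, Prosbeta6 at 0.03, 0.08 and 0.61, and REG at 0.04, 0.05 and 0.56. Ubc4 was at 0.25 and 0.77 with the trend and its level out, Rpn1 at 0.37 by library size, and Rpn2 at -0.85 and -0.31 with the trend and its level out.

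Replicate letters were not used to pair the samples in the main fits. Same-lettered samples deviated together from 96h to 120h AEL, with r of 0.15, 0.13 and 0.10 (0.0996 for C). Each sample there correlated best with its own letter, and samples of different letters had r of -0.18 to -0.01. From 72h to 96h AEL r was -0.42 for A. Comparisons with 72h AEL cannot show pairing, because libraries A and B of that stage are near-duplicates. With the letter as a replicate block, the fits with 72h AEL kept libraries A and B as separate samples, although they agreed within sampling noise. From 72h to 96h AEL 0 members were called (16.7% of all genes higher, 20.3% lower), and from 96h to 120h AEL 0 (5.9% and 4.6%). From 72h to 120h AEL 1 was higher (Rpn13R, against 29.8%) and 2 lower (Prosbeta4 and Prosbeta6, each at -0.61, against 31.8%). Those calls count near-duplicate libraries as replicates.

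With 2 samples at 72h AEL, sex, attached muscle and length dependence changing with stage, comparisons with 72h AEL rest on the fewest samples and on stages that differ in more than time. The few counts of Rpt4R, Rpt6R and the paralogs at the floor do not allow small differences to be seen.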
